A study of Danio rerio with 6 samples.

Results

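The genes described here encode transcription factors of olfactory sensory neurons and of the placode they arise from: the LIM homeodomain factors Lhx2, the Ebf factors, the Emx homeodomain factors and Dlx5. They were taken by 9 zebrafish names (lhx2a, lhx2b, ebf1a, ebf2, ebf3a, emx1, emx2, emx3 and dlx5a), which were matched to the symbols of the counted gene identifiers. The match gave 8 of the 32469 gene rows, and all 8 passed the filter on low counts that left 18271 genes for testing. The row called LHX2 (ENSDARG00000031222) stands for lhx2b, because lhx2a (ENSDARG00000037964) carries its own name. The row called EBF1 (ENSDARG00000069196) may be ebf1a or ebf1b, and ebf3a had no matching row, so it is not analysed here.

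RNA of 6 samples was sequenced, 3 per group, from heads of zebrafish at 5 days post fertilization. All carried the transgenes OMP-Gal4 and UAS-GCaMP1.6, so that a green fluorescent calcium sensor is made where the OMP promoter is active, in mature ciliated olfactory neurons. Control embryos received DMSO, and gallein embryos received 100 µM gallein, an inhibitor of G protein beta-gamma signalling. Either treatment was started between 16 and 20 hours post fertilization, and the medium was then renewed every 24 hours. The heads were dissociated and the cells sorted for green fluorescence. The labels call the 3 samples of a group biological replicates, and do not say how many larvae went into a sample.

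In mouse olfactory neurons, Lhx2 and Ebf proteins bind together at enhancers of odorant receptor genes, with Lhx2 recruiting the cofactor Ldb1. Ebf sites also lie in promoters of other olfactory genes, OMP among them. Mouse Emx2 is needed for normal expression of many odorant receptor genes, while Dlx5 acts earlier, in the olfactory placode. None of these factors is restricted to the nose: Emx genes mark the dorsal telencephalon, Dlx5 the pharyngeal arches, and Lhx2 the eye and forebrain.

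Gene counts ranged from 30822664 to 40295728 per sample, and levels are given in counts per 1000000 gene counts (CPM), scaled by TMM factors. Relative to gene counts, spike-in RNA made up 2.29% to 4.75% in control libraries and 6.03% to 10.1% in gallein libraries. The sorted material held RNA of other head tissues, with skeletal muscle genes summing to 867 to 3891 CPM and retina genes to 287 to 21927 CPM. OMP itself (ENSDARG00000032380) was counted 531, 407 and 339 times in control replicates 1 to 3 and 126, 4 and 184 times in gallein replicates 1 to 3. Gallein replicate 2 therefore held hardly any OMP reads, and cngb1b and 1 of the 2 ADCY3 rows, other genes of ciliated neurons, were at 0 there.

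None of the 8 genes differed between gallein and control past the threshold, which does not show that their levels were alike. The edgeR quasi-likelihood test called 0 of 8 at an adjusted p of 0.05 (0% of all genes tested), and the DESeq2 Wald test also called 0 of 8, against 0.509% of all genes tested. At an unadjusted p under 0.05 edgeR singled out 1 of the 8, lhx2a, against 6.50% of all genes (1187 genes). Log2 fold changes were negative for 4 genes and positive for 4, against 47.3% negative over all genes. The median was -0.08 for the 8 genes and 0.07 for all genes tested. These directions depend on TMM scaling: with spike-in totals as library sizes 7 of the 8 were negative, and the median was -1.79 for the 8 genes and -1.66 for all genes. In bulk samples, fewer cells of a type and less RNA per cell cannot be told apart, and this holds for each level below.

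**Figure D1:**
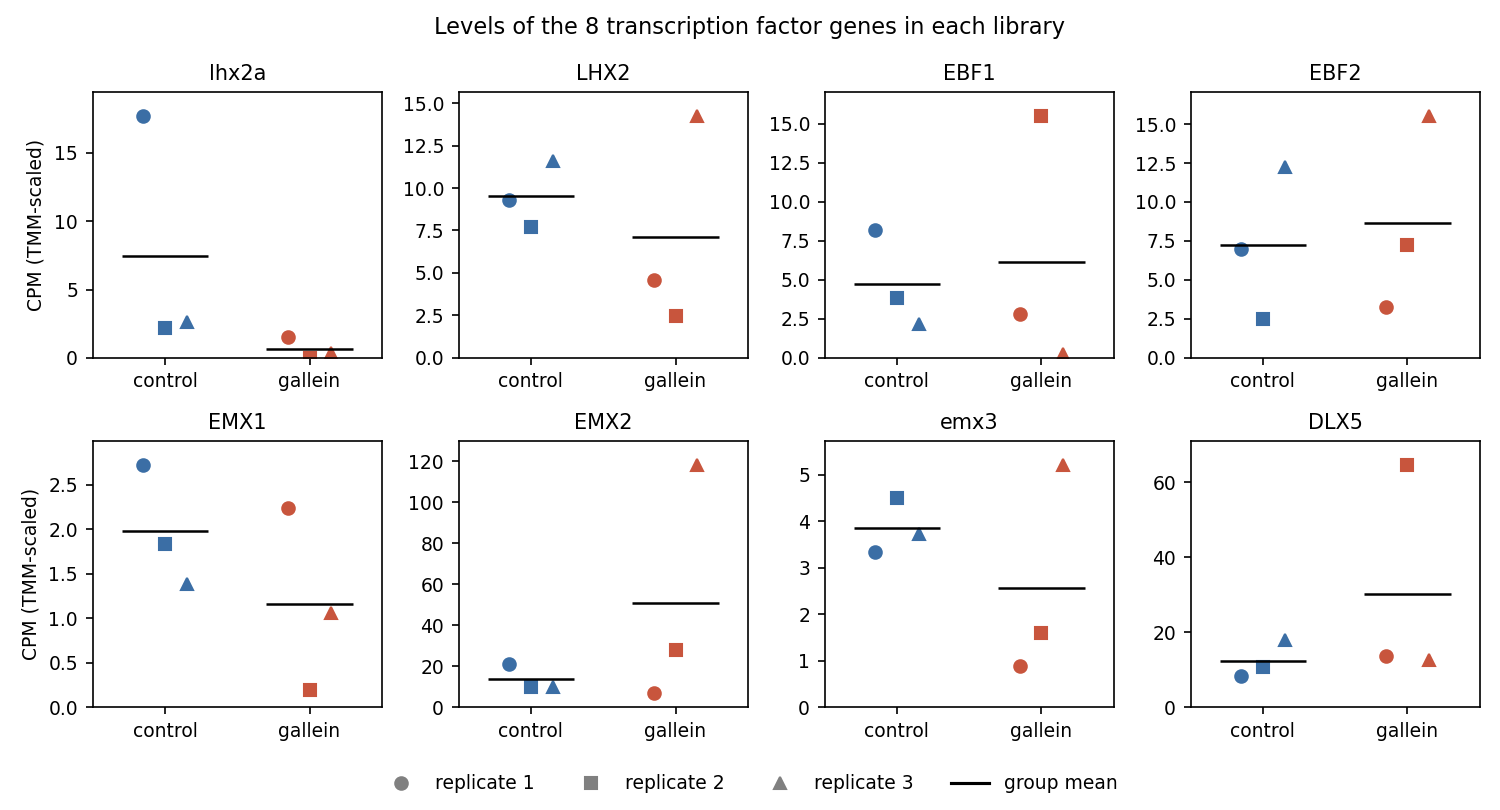
TMM-scaled CPM of each of the 8 genes (vertical axes, linear from 0, own scale per gene) in the 3 control (blue) and 3 gallein (red) libraries, with replicates by symbol and the group mean as a line. The groups are apart only for lhx2a, and single gallein libraries stand high for EMX2 (118 CPM), DLX5 (64.6 CPM) and EBF1 (15.5 CPM).

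The LIM homeodomain gene lhx2a had the lowest gallein levels relative to control. Control replicates 1 to 3 stood at 17.7, 2.17 and 2.60 CPM, and gallein replicates 1 to 3 at 1.52, 0 and 0.352 CPM. All gallein samples lay below all controls, as they did for 5.22% of all genes tested, and control replicate 1 stood far above the other controls. The counts were 703, 127 and 113 in the controls and 40, 0 and 13 in gallein. A count of 0 in gallein replicate 2 allows up to 3 counts, or 0.144 CPM, by counting error alone. The edgeR log2 fold change was -3.57 ± 1.48 (SE, adjusted p = 0.756, Benjamini-Hochberg over all genes tested). An exact permutation test of log2(CPM + 0.1) gave a difference of -3.51 and p = 0.1 (two-sided, n = 3 per group), the smallest p this design allows. Without control replicate 1 the log2 fold change was -1.91, and over the other 5 libraries left out in turn it ran from -5.30 to -3.00.

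Its paralogue LHX2 (lhx2b by the naming rule) had a narrow range in the controls and a wide one in gallein. The levels were 9.28, 7.71 and 11.6 CPM in controls and 4.60, 2.45 and 14.2 CPM in gallein. Gallein replicate 3 was thus the highest of the 6 libraries and gallein replicates 1 and 2 the lowest, so the groups overlapped. The log2 fold change was -0.42 ± 0.81 (SE, edgeR adjusted p = 0.955), and leaving out gallein replicate 3 gave -1.44, leaving out gallein replicate 2 gave -0.02. Counted against LHX2 in the same library, lhx2a gave 1.91, 0.282 and 0.225 counts per LHX2 count in the 3 control libraries, and 0.331, 0 and 0.0248 in the gallein libraries. The ratio of the paralogues in gallein replicate 1 lay inside the control range, and the other gallein libraries lay below it.

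Among the Ebf genes, EBF1 spread widely between the gallein libraries. It was at 8.18, 3.85 and 2.14 CPM in the controls and at 2.81, 15.5 and 0.217 CPM in gallein. Gallein replicate 2 held the highest and gallein replicate 3 the lowest level, 71.4-fold apart, where the median tested gene without a 0 spanned 5.13-fold among gallein libraries and 2.95-fold among controls. The log2 fold change was 0.38 ± 1.21 (SE, edgeR adjusted p = 0.974), and -1.64 without gallein replicate 2. The difference of mean log2(CPM + 0.1) had the other sign, at -0.78. The 2 files deposited for each sample gave 169 and 153 EBF1 counts for gallein replicate 2 and 5 and 3 for gallein replicate 3, a gap far wider than that between files. Ebf1 is also known from B lymphocytes. The 7 rows of leukocyte and B cell genes summed to 2.21 to 4.40 CPM in controls and to 12.7, 6.54 and 2.20 CPM in gallein replicates 1 to 3. Of the B cell genes among them, PAX5 was highest in gallein replicate 2, at 1.25 CPM, while cd79a was at 0 and ighm held 1 count there. The part of B cell RNA in the EBF1 values was not tested.

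EBF2 (ENSDARG00000042525) spread about as widely within either group. Its levels were 6.97, 2.51 and 12.2 CPM in controls and 3.27, 7.27 and 15.5 CPM in gallein, and the groups overlapped. EdgeR put the log2 fold change at 0.26 ± 0.86 (SE, adjusted p = 0.977). Leaving out gallein replicate 3 turned it to -0.47, and leaving out control replicate 2 to -0.15. EBF1 and EBF2 did not follow each other, with 1.17, 1.53 and 0.175 EBF1 counts for each EBF2 count in controls, against 0.860, 2.13 and 0.0140 in the gallein libraries.

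The Emx genes differed among themselves in the gallein libraries. EMX2 (ENSDARG00000039701) was at 21.0, 9.66 and 9.76 CPM in controls and at 6.84, 27.9 and 118 CPM in gallein. Gallein replicate 3 stood far above every other library, and gallein replicate 1 was the lowest of all, so the groups overlapped. Its edgeR log2 fold change, 1.92 ± 0.99 (SE, adjusted p = 0.779), was 0.36 without gallein replicate 3. The high level was present in both files of that sample, with 2286 and 2070 counts. In the same library EOMES (ENSDARG00000006640), known from the telencephalon, was at 132 CPM against 8.09 to 25.5 CPM in controls, and NEUROD2 at 10.8 CPM against 0.503 to 1.08 CPM. EOMES was also high in gallein replicate 2, at 77.0 CPM, and low in gallein replicate 1, at 5.51 CPM, the same order as EMX2. The whole list of 21 telencephalon and brain neuron rows summed to 430 to 722 CPM in controls and to 1355, 472 and 1512 CPM in gallein replicates 1 to 3, with 1 row at 0 in each of gallein replicates 1 and 2 and none in the other libraries. The part of telencephalic RNA in the EMX2 values was not tested.

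Levels of emx3 (ENSDARG00000020417) were steady in the controls, at 3.35, 4.50 and 3.73 CPM, and spread in gallein, at 0.874, 1.59 and 5.20 CPM. Gallein replicates 1 and 2 lay below the controls and replicate 3 above them. The log2 fold change was -0.59 ± 0.94 (SE, edgeR adjusted p = 0.941), and -1.65 without gallein replicate 3. EMX1 (ENSDARG00000039569) was at 2.72, 1.83 and 1.38 CPM in controls and at 2.24, 0.192 and 1.06 CPM in gallein. Gallein replicate 2 held only 4 EMX1 counts, and the edgeR log2 fold change, -0.76 ± 1.12 (SE, adjusted p = 0.939), became -0.26 when that library was left out, and -1.64 when gallein replicate 1 was. Per EMX2 count in the same library, emx3 was at 0.159, 0.465 and 0.382 in the controls. In gallein it was at 0.128, 0.0570 and 0.0441, all below the controls. In gallein replicate 3, however, emx3 itself stood above the controls in CPM, and EMX2 was at 118 CPM. For EMX1 this ratio overlapped between the groups, as did the ratios of lhx2a to LHX2, EBF1 to EBF2 and DLX6 to DLX5. These ratios were not tested, and no share over other gene pairs was computed.

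The placodal gene DLX5 (ENSDARG00000042296) was at 8.38, 10.6 and 18.0 CPM in controls and at 13.6, 64.6 and 12.7 CPM in gallein. Gallein replicate 2 was high and gallein replicates 1 and 3 lay inside the control range. Its edgeR log2 fold change, 1.29 ± 0.83 (SE, adjusted p = 0.800), was 0.09 without gallein replicate 2. Of the 7 other Dlx rows, 3 were also highest in that library, DLX2 (ENSDARG00000079964) at 68.2 CPM against 8.75 to 18.8 CPM in controls dlx4a at 30.1 CPM against 1.27 to 4.46 CPM, and DLX6. DLX3 had its lowest level there, at 2.36 CPM against 3.71 to 10.3 CPM in controls, and dlx4b, DLX1 and the second DLX2 row lay inside the control range. The cartilage and pharyngeal arch list, 12 rows with none at 0 in any library, summed to 24428 CPM in gallein replicate 2, to 1348 and 1391 CPM in gallein replicates 1 and 3 and to 2099 to 4116 CPM in controls. The cartilage matrix genes COL2A1 (ENSDARG00000069093) and MATN1 made 9318 and 9157 CPM of the sum in gallein replicate 2. The part of cartilage and arch RNA in the DLX5 value was not tested. DLX6, which lies in a gene pair with DLX5, was at 0.503, 1.57 and 0.0691 CPM in controls and 2.74, 3.51 and 0.651 CPM in gallein.

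**Figure D2:**
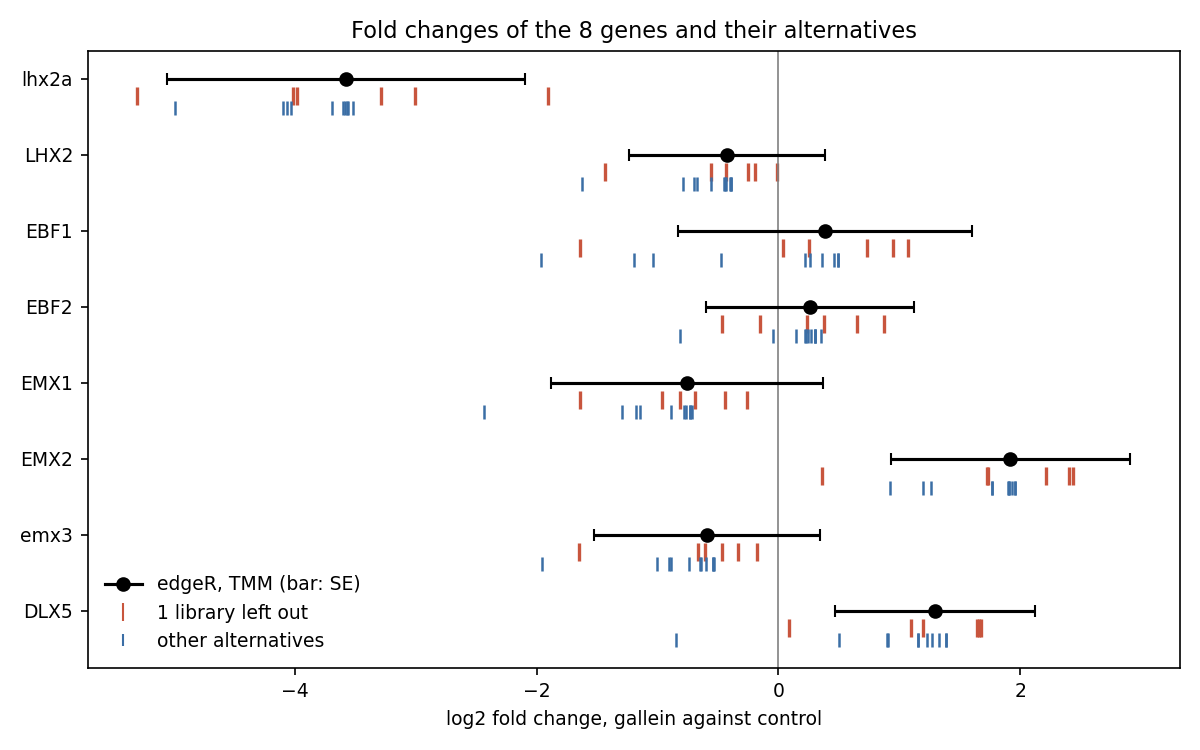
Log2 fold change of gallein against control (horizontal axis) for the 8 genes, with the edgeR value and its SE in black, the values with 1 library left out in red and those under the other alternatives in blue. The marks of EBF1, EBF2 and DLX5 lie on either side of 0, for DLX5 only through the value with spike-in totals (-0.85). Those of lhx2a run from -5.30 to -1.91.

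Taken over the 8 genes, the spread between replicates was larger in gallein than in control for 7 (SD of log2(CPM + 1)), against 65.9% of all genes tested. Among the 7, EBF2 had nearly equal SDs, at 0.976 in gallein and 0.966 in control. On this scale lhx2a was the exception, but the added 1 compresses its gallein levels of 1.52, 0 and 0.352 CPM. Its place may therefore depend on that setting. Gallein replicate 3 held the highest level for 4 of the 8 genes and gallein replicate 2 the lowest for 3. The genes with a gallein replicate 3 maximum were LHX2, EBF2, EMX2 and emx3. Those with a gallein replicate 2 minimum were lhx2a, LHX2 and EMX1, while DLX5 and EBF1 had their maximum there.

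**Figure D3:**
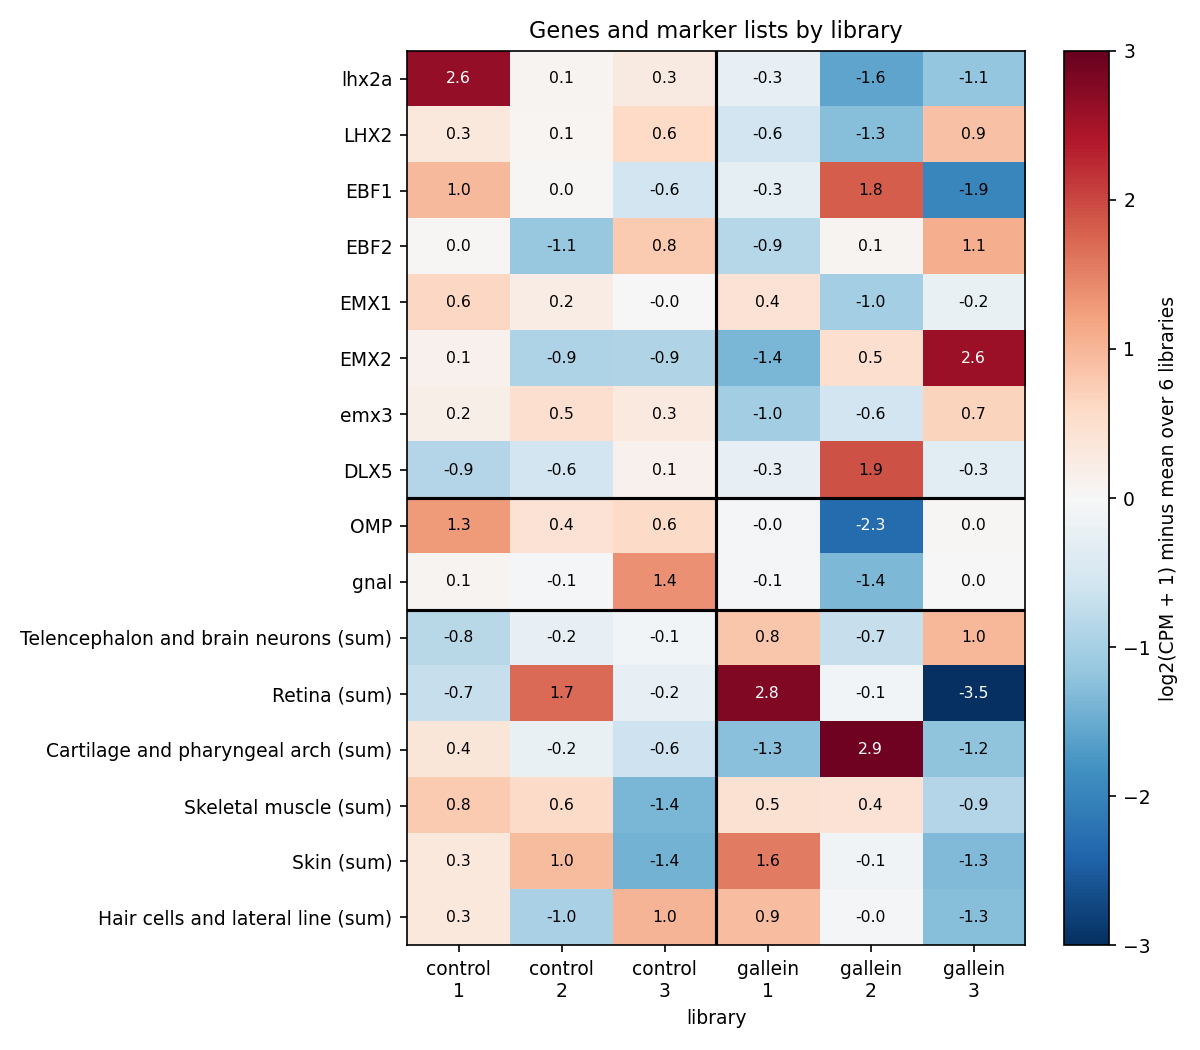
Difference of log2(CPM + 1) from its mean over the 6 libraries (colour and printed value, colours saturating at 3 on either side) for the 8 genes, for OMP and gnal, and for the summed CPM of 6 marker lists. DLX5 and the cartilage list are highest in gallein replicate 2, where OMP is lowest, and EMX2 is highest in gallein replicate 3.

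Because the sort rested on the OMP promoter, the counts were also set against genes of ciliated olfactory neurons in the same library. OMP was at 13.4, 6.96 and 7.80 CPM in controls and at 4.79, 0.192 and 4.99 CPM in gallein, and gnal, which encodes the alpha subunit that odorant receptors activate, at 8.35, 7.51 and 21.9 CPM and at 7.41, 2.45 and 7.83 CPM. Per OMP count, lhx2a was at 1.32, 0.312 and 0.333 in the controls and at 0.317, 0 and 0.0707 in gallein. The groups, apart for lhx2a in CPM, overlapped on this scale, because gallein replicate 1 lay between control replicates 2 and 3. Per gnal count, lhx2a was at 2.12, 0.289 and 0.119 in controls and at 0.205, 0 and 0.0450 in gallein, again with an overlap.

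DLX5 was above all controls per OMP count and per gnal count, but not per count of ELAVL3, a gene of the brain neuron list. Per OMP count it was at 0.627, 1.53 and 2.31 in the controls and at 2.83, 336 and 2.54 in gallein. In CPM the groups overlapped for DLX5, while OMP itself was lower in every gallein library than in any control. EMX2 held a close range in the controls, 1.57, 1.39 and 1.25 counts per OMP count, and stood at 1.43, 145 and 23.7 in gallein. Per ELAVL3 count EMX2 lay above all controls, with 0.433, 0.0986 and 0.0731 in controls and 0.556, 1.96 and 0.473 in gallein. Ratios of gallein replicate 2 rest on 4 OMP counts and 51 gnal counts. No test was made of these ratios, and the share of all genes above the controls on such scales was not computed.

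**Figure D4:**
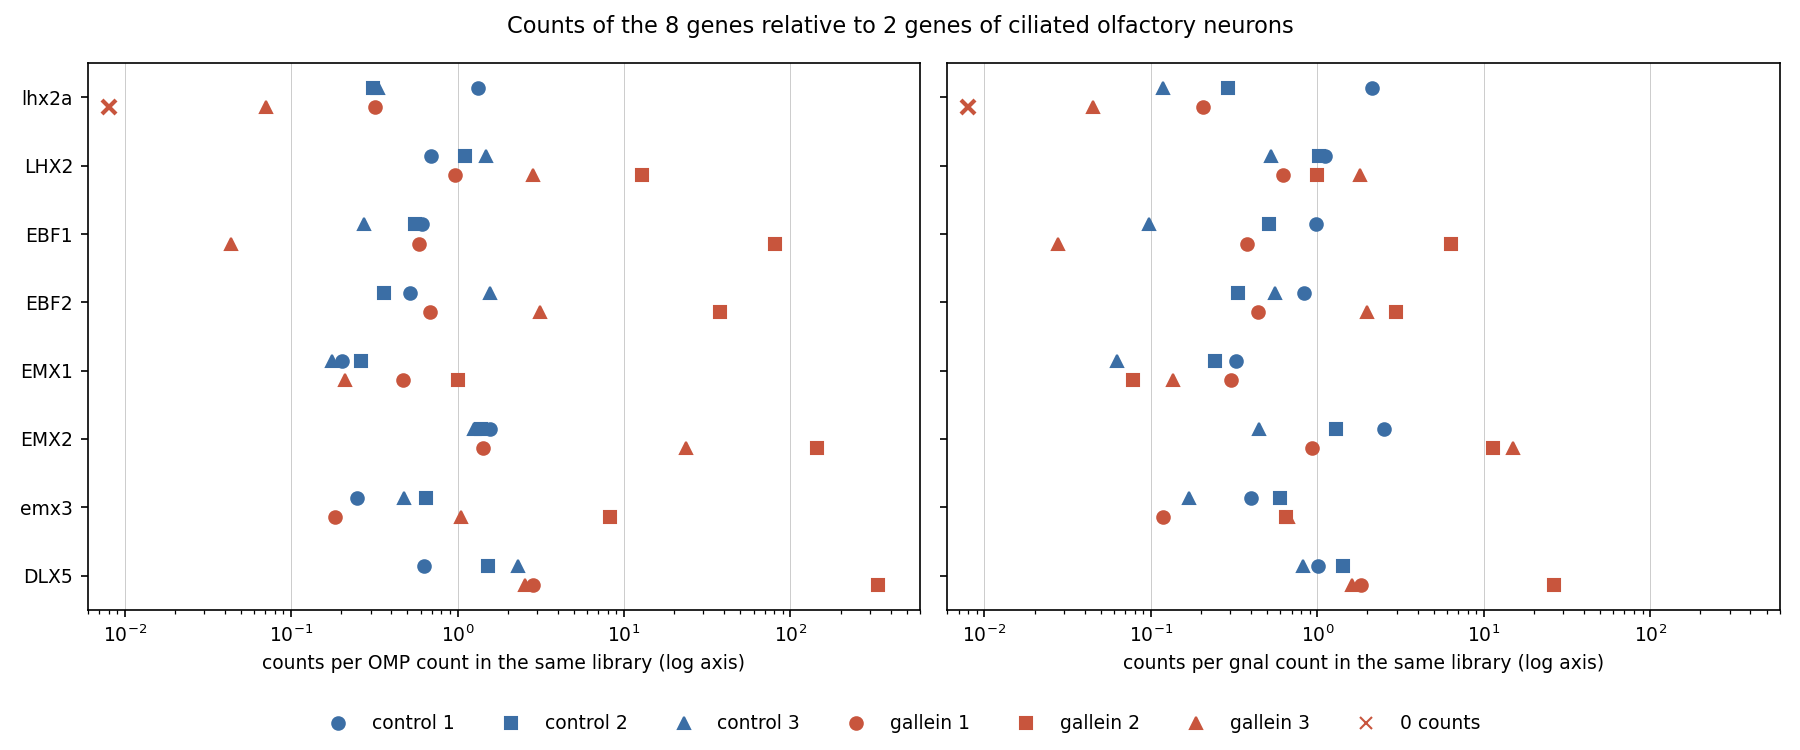
Counts of the 8 genes per OMP count (left) and per gnal count (right) in the same library, on log axes, for control (blue) and gallein (red) libraries, with replicates by symbol and a cross at the left edge for 0 counts. For lhx2a the gallein libraries reach from 0 into the control range, and for DLX5 they lie above the controls in either panel.

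Genes related to these factors by family or function were read from the same fit, and edgeR called 0 of the 93 tested in these 7 lists. At an unadjusted p under 0.05 edgeR singled out 3 of the 93, lhx5, SIX3 and SSBP3, against 6.50% of all genes tested. Limma-voom called 0. The DESeq2 Wald test called 2, SIX3 (adjusted p = 0.0329) and SSBP3 (adjusted p = 0.0225), against 0.509% of all genes tested. In the LIM homeodomain family beyond Lhx2, 13 of 16 rows were tested, 9 with a positive and 4 with a negative log2 fold change (median 0.31 against 0.07 for all genes). The forebrain gene lhx5 was at 5.41, 2.27 and 5.55 CPM in controls and at 56.3, 51.8 and 7.83 CPM in gallein. EdgeR gave it 3.13 ± 0.90 on the log2 scale (SE, adjusted p = 0.756). All its gallein samples lay above the controls, as in 3.81% of all genes, and so did those of ISL2 (ENSDARG00000003971), at 23.4, 46.2 and 42.2 CPM against 6.92 to 21.6 CPM. LHX4 was the reverse, with 0.337 to 0.760 CPM in gallein below 1.28 to 2.49 CPM in controls, as in 5.22% of all genes. Leaving out gallein replicate 2 turned the list's median to -0.24, leaving out gallein replicate 3 to -0.05, and leaving out control replicate 1 raised it to 0.55.

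The list of LIM domain cofactors, 13 rows tested, had 9 positive and 4 negative values (median 0.66, -0.05 without gallein replicate 3 and 0.01 without gallein replicate 2). LDB1 (ENSDARG00000010137), the partner of Lhx2 at receptor enhancers in mouse, was at 355, 141 and 1158 CPM in controls and at 109, 185 and 159 CPM in gallein. Its groups overlapped, and the log2 fold change was -1.87 ± 0.99 (SE, edgeR adjusted p = 0.779). SSBP3 (ENSDARG00000058237), which encodes a protein that binds and stabilises Ldb1, was at 10.6, 3.64 and 43.9 CPM in controls and at 1.67, 1.30 and 0.949 CPM in gallein. All gallein samples lay below the controls, and the edgeR log2 fold change was -3.89 ± 1.01 (SE, adjusted p = 0.756). LDB2 (ENSDARG00000034896) was high in gallein replicate 3 only, at 136 CPM, and ssbp4 in gallein replicate 2 only, at 2009 CPM. The list also took in LIM-only (LMO) genes, RLIM and ldb3a, a gene of muscle. Its counts and median therefore do not describe the LDB1, LDB2 and SSBP rows alone. Among those rows, LDB1 and SSBP3 had negative values, and ssbp3b, ssbp4 and the LDB2 rows positive values. Of the LIM-only genes, LMO1, LMO3, LMO4 and lmo4a had positive values and LMO2 a negative value.

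In the Ebf list without EBF1 and EBF2, 3 rows were tested, 2 of them positive. The zinc finger gene znf423, whose protein binds Ebf factors in rodents, was at 38.8, 55.2 and 37.0 CPM in controls and 36.4, 91.5 and 89.1 CPM in gallein. Its relative ZNF521 was at 3.32 to 6.77 CPM in controls and 1.30 to 4.34 CPM in gallein, and the groups overlapped for either gene. The paralogue ebf3b was nearly silent, at no more than 0.488 CPM in any library and at 0 in control replicate 3 and gallein replicate 1. The Dlx list had 4 positive and 3 negative values over 7 rows (median 0.03, and 0.80 without control replicate 1).

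Sine oculis homeobox, Eya and Dach genes, which form a shared regulatory network in placodes, had 10 positive and 8 negative values over 18 rows (median 0.06, and -0.30 without gallein replicate 2). EYA1 and eya2 had log2 fold changes of -0.27 ± 0.67 and -0.02 ± 0.64 (SE, edgeR adjusted p = 0.966 and 0.997). EYA4 was at 17.2 to 19.2 CPM in controls and 11.4 to 16.5 CPM in gallein. All its gallein samples lay below the controls, as for 5.22% of all genes tested. The forebrain and eye gene SIX3 (ENSDARG00000054879) was at 4.29 ± 1.40 on the log2 scale by edgeR (SE, adjusted p = 0.756), with 236 CPM in gallein replicate 2 and 3.50 and 15.9 CPM in gallein replicates 1 and 3, against 2.33 to 5.53 CPM in controls. The second SIX3 row (ENSDARG00000058008) was at 13.3, 15.2 and 5.32 CPM in controls and at 8.17, 16.3 and 9.46 CPM in gallein. Its groups overlapped, and the log2 fold change was 0.01 ± 0.71 (SE, edgeR adjusted p = 0.999). The level of six9 was 1.32 to 2.26 CPM in controls and 0.304, 0 and 0.840 CPM in gallein.

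Other factors of the olfactory lineage had 12 positive and 12 negative values over 24 rows (median 0.10, and from -0.23 without gallein replicate 3 to 0.25 without control replicate 3). PAX6 (ENSDARG00000045936), needed for the olfactory placode and the eye, was at 6.01, 18.1 and 11.1 CPM in controls and 4.79, 1.30 and 5.77 CPM in gallein. Every gallein sample lay below the controls, as for 5.22% of all genes tested. The edgeR log2 fold change was -1.57 ± 0.83 (SE, adjusted p = 0.779). PAX6 is also expressed in the retina, and for the 16 retina rows tested the median fold change on the log2 scale stood at -1.24, or -0.09 with control replicate 2 left out. Retina genes summed to 1961, 10405 and 2692 CPM in controls and 21927, 2998 and 287 CPM in gallein, with atoh7 at 0 in gallein replicates 2 and 3. A single row, opn1sw2, made 20455 CPM of the sum in gallein replicate 1. The part of retinal RNA in the PAX6 values was not tested. NFIX (ENSDARG00000061836), a nuclear factor I gene, was at 99.3 CPM in control replicate 1, the library in which lhx2a was also highest, and at 1.76 to 9.43 CPM in the other 5 libraries. The differentiation genes NEUROD1 and UNCX had log2 fold changes of -0.03 ± 0.74 and -0.66 ± 0.89 (SE, edgeR adjusted p = 0.996 and 0.928).

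The genes of ciliated olfactory neurons had 13 negative and 2 positive values over 15 rows (median -1.09), and for 4 of them all gallein samples lay below the controls, against 5.22% of all genes. The 4 were OMP, cngb1b, STOML3 (ENSDARG00000057035) and ADCY3 (ENSDARG00000017437). Left-out libraries moved the list's median between -1.44 and -0.65. Of the 8 transcription factor genes, 1 shared this arrangement, lhx2a.

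For each of the 8 genes the tested genes with the most similar levels over the 6 libraries were taken by Pearson's r of log2(CPM + 1). With 6 libraries and 18271 genes such likeness is easily reached: the 2 closest genes had an r of 0.973 to 0.996, and 10 to 118 genes per factor had an r over 0.95. The closest to LHX2 were SYT3 (r = 0.996) and RNF24 (0.995), and to emx3 SPSB3 (0.988) and BICDL1 (0.987). Closest to EMX2 was MED27 (0.991), to DLX5 bet1l (0.990), to EBF1 PSMA6 (0.996), to EBF2 PPIH (0.987) and to EMX1 MRPL46 (0.991). The closest to lhx2a were ENSDARG00000015622 (0.996) and ENSDARG00000058767 (0.994), which the name table leaves without a symbol. None of the 8 factors was among the 2 closest genes of another.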

How the data were processed

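Each of the 6 samples came with a pair of files in which the authors deposited raw counts of reads per gene. The submitters' processing notes name TopHat2 2.0.4, HTSeq and the build Zv9. No annotation release, counting mode or strand setting is stated there, so overlapping and antisense genes cannot be told apart, and reads shared by paralogues may have been dropped. The 2 files of a sample differed by little more than sampling noise (chi-square per gene 1.29 to 1.51, against 344 to 1230 between replicates) and were summed as 1 replicate. Left out of library sizes and tests were 92 spike-in rows and 5 rows that name no gene, the latter holding 19.4% to 33.9% of each sample's counts.

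The test of the counts was that of edgeR 4.0.16, run in R 4.3.3 (TMM factors, filterByExpr with a minimum count of 10, robust quasi-likelihood fit on group, Benjamini-Hochberg adjustment over 18271 genes, threshold 0.05, two-sided). The SE is the log2 fold change divided by the square root of F. The p-values weigh the difference between the groups against the spread between these samples. Ratios within a library were not tested. Alternatives were other scalings, filters, tests (DESeq2 1.42.0, limma 3.58.1 voom), single files, the replicate block and left-out libraries. The fit was tested on simulated data: with the spread estimated from these libraries it missed nearly all large changes, so an absence of calls carries little information, and with a small spread it recovered nearly all.

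Symbols came from a name table and matched 20734 rows. A listed name was matched in any case, and a capital symbol also without its final a or b. Rows of the 8 genes were taken out of the other lists. Named were all 8 genes, genes out of the 4 with the smallest p in each list, OMP, gnal and, for each factor, the 2 genes with the highest r. Further list genes (LHX4, EYA1, eya2, EYA4, NEUROD1, UNCX, STOML3, ADCY3, ldb3a, ssbp3b, the LMO genes, RLIM, ELAVL3, atoh7, PAX5, cd79a, ighm, DLX1, DLX3, the second DLX2, SIX3 and LDB2 rows, the COL2A1 row ENSDARG00000069093) were named after their values were seen. A further gene of the selection is not reported here. The members and lists were chosen with earlier results of these data known.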

Additional observations from a re-analysis of the deposited data

How the results depend on the processing

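Across 17 alternatives, none of the 8 genes passed the threshold, and 123 of 133 fold changes kept their sign. The DESeq2 Wald test called 93 genes over all tested, against 0 with edgeR. Spike-in scaling moved the median of all genes to -1.66 and library size alone to -0.49. With spike-ins, DLX5 was at -0.85, EBF1 at -1.96 and EBF2 at -0.81, so their positive signs turned while DLX5 and EBF2 lay above the median of all genes. With library size alone EBF1 was at -0.47 and EBF2 at -0.041. In limma-voom EBF1 was at -1.19; the cause was not tested. With 1 library left out, EBF1 ran from -1.64 to 1.07 and EBF2 from -0.47 to 0.87. A filter of at least 10 counts in every sample removed lhx2a, EBF1 and EMX1 by its construction.

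Same-numbered samples had correlations of 0.07, -0.12 and 0.18 between their deviations from the group means. Control replicate 1 correlated best with gallein replicate 2, and control replicates 2 and 3 with gallein replicate 3. With 3 samples per group these values cannot decide whether the replicate numbers pair the samples. With the replicate block 0 genes were called, 511 had an unadjusted p under 0.05, and EBF1 was at -1.04.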
